A study of Homo sapiens with 12 samples.

Results

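The mRNA of 10 enzymes of glycolysis was followed in WI-38 cells, a line of human lung fibroblasts, with and without transforming growth factor (TGF)-β. The 10 genes, HK1, HK2, PFKP, ALDOA, TPI1, GAPDH, PGK1, ENO1, PKM and LDHA, were taken by symbol as named enzymes of the pathway. All 10 of 10 were found among the 25702 genes of the count table, and all 10 were among the 9490 genes that reached 10 cpm, counts scaled to the size of the library, in at least 6 of the 12 libraries. All cpm values carry the TMM factors of edgeR, which balance the make-up of the libraries. The 4 conditions had 3 flasks each. D1 cells were untreated and were harvested on day 1, when confluent, and D1+ TGF-β cells had received 2 ng/mL TGF-β for 1 day. D20 and D20+ TGF-β cells had been kept without or with TGF-β for 20 days. All flasks held low-glucose medium with serum, and the D20 flasks received new medium throughout. All D20 flasks without TGF-β came from 1 earlier flask, and all D20 flasks with it from another, so the flasks of a condition are not separate lines, and p-values measure the spread between flasks. D1 cells were at passage 2 to 3 and D20 cells at passage 5 to 6. The D20 flasks were seeded anew so as to be just short of confluence at harvest, while the D1 flasks were confluent. Time in culture, passage and cell density thus cannot be told apart.

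Glycolysis splits glucose into pyruvate, and lactate dehydrogenase turns pyruvate into lactate, which lets the pathway run on without mitochondrial respiration. Hexokinase traps glucose in the cell, phosphofructokinase commits it to the pathway, and aldolase and triose phosphate isomerase form the triose phosphates from which the later enzymes make ATP. Fibroblasts that lay down matrix draw on the pathway both for ATP and for precursors such as serine and glycine, of which collagen holds much. TGF-β is the cytokine that turns fibroblasts into myofibroblasts, and many glycolytic genes are textbook targets of hypoxia-inducible factor and MYC, which bind to related short DNA motifs.

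Libraries held 8674488 to 18286197 counts, and a member had between 583 (HK2) and 61851 (GAPDH) counts in a library. Of 6 fibroblast markers, 6 were above 1 cpm, with sums of 12950.0 to 20938 cpm over the libraries, while EPCAM, CDH1, PECAM1, CDH5, PTPRC, CD3E and LYZ were below 1 cpm in all 12 libraries. KRT19 made up most of the epithelial sum of 5.50 to 28.1 cpm, endothelial sums were at most 1.69 cpm, and the leukocyte sum, carried by CD14, was 5.53 to 6.25 cpm at D20 and at most 0.618 cpm elsewhere. ACTA2, which encodes the α-smooth muscle actin that marks myofibroblasts, rose at D1+ TGF-β (log2 fold change 2.07 ± 0.17 SE, edgeR adjusted p = 2.28e-06), but at D20+ TGF-β vs D20 it was not called (log2 fold change 0.13 ± 0.17 SE, edgeR adjusted p = 0.554), and of 4 contractile markers 0 were higher and 2 lower there. The study calls the D20+ TGF-β cells myofibroblasts from α-smooth muscle actin protein, raised on western blot and present in most treated cells by immunofluorescence. The values here are of mRNA, and none of the 4 contractile markers was called higher in D20+ TGF-β cells than in D20 cells. Of the 6 fibroblast markers, 1 was called higher there and 2 lower. The higher one was COL1A1 (log2 fold change 0.99 ± 0.12 SE, edgeR adjusted p = 2.39e-05). Flasks of a condition differed most at D1, where replicate 2 stood apart (chi-square per degree of freedom 9.81 to 26.8 between flasks), and at D20+ TGF-β, where replicate 3 did (4.21 to 20.0), against 1.57 to 3.57 in the other conditions and 1.00 to 1.05 between lanes of a library. Where one of these 2 libraries decided a value of a member, the value without it is given as well. For other genes named here, it is given for some of those where such a library lay far from the other flasks. D1 replicate 2 was the lowest D1 flask for ACTA2, PSAT1 and PHGDH, whose comparisons with D1 are given only with it. These 2 libraries were singled out after the data were seen. Leaving out a flask far from the others narrows the spread that p-values measure, so those p-values are optimistic.

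The sequences just before the start sites are shown for some members that differ in the letters they hold. Whether these letters bear on the values was not tested. ACGTG, on either strand, is the core that hypoxia-inducible factor binds, and CACGTG is the E-box bound by MYC and its relatives, which contains ACGTG on both strands. In the 250 bases before the RefSeq start, ACGTG was found in 5 of 10 members (HK2, ALDOA, GAPDH, PGK1 and LDHA) and in 18.7% of 27305 windows of the same length, and CACGTG in 2 of 10 members (GAPDH and LDHA) and 6.49% of windows. CAGAC, a short Smad-binding motif searched on both strands, was found in 4 of 10 members and 37.8% of windows. A match is a description of letters only. Each sequence below runs 5′ to 3′ on the plus strand over 240 bases, ending 10 bases before the start. It comes from RefSeq (GRCh38.p14) and was matched to 1 place on the chromosome in GRCh37. Capitals mark ACGTG or its reverse complement, with the whole E-box where there is one.
LDHA (chr11:18415860-18416099): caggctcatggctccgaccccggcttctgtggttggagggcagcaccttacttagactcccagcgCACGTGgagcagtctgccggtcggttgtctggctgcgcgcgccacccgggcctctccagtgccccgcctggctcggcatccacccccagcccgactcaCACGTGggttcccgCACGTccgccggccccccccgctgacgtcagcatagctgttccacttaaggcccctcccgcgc
PGK1 (chrX:77359495-77359734): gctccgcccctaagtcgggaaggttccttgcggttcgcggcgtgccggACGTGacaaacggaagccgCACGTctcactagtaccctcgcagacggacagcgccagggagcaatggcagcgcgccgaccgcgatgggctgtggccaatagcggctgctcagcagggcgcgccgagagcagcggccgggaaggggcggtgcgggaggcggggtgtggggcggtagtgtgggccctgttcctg
HK2 (chr2:75061004-75061243): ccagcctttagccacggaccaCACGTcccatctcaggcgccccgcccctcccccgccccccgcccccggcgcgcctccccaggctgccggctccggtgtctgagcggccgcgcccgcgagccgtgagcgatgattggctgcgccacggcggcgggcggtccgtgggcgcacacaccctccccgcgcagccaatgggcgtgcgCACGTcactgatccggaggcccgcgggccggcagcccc
PFKP (chr10:3109912-3110151): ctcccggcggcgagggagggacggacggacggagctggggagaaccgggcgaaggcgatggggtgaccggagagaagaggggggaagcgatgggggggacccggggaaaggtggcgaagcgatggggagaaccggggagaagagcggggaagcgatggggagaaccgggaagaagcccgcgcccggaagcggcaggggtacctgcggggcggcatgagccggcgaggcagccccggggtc
LDHA had 2 E-boxes and 5 matches of ACGTG counted over both strands, PGK1 and HK2 had 2 matches of ACGTG each, and PFKP had 0. HK1, TPI1, ENO1 and PKM, which are not shown, had 0 as well. The LDHA stretch lies outside annotated genes, the stretches of PGK1 and PFKP lie in introns of longer transcripts of the same genes, and that of HK2 shares 111 bases with exons of the long noncoding HK2-DT on the opposite strand.

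With 1 day of TGF-β, calls among the members were near the share of all genes. At D1+ TGF-β vs D1, PFKP, the platelet-type phosphofructokinase, was the 1 of 10 members called higher (fold 1.26), and 0 were called lower, where 6.89% of all genes tested were called higher and 6.50% lower. GAPDH and PKM were lower there but not called (edgeR adjusted p = 0.024 and 0.036). DESeq2 called both lower (adjusted p = 0.00144 and 0.00446). After 20 days with TGF-β, at D20+ TGF-β vs D20, PFKP was again called higher (fold 1.44) and HK1 lower (fold 0.752), 1 of 10 each way against 12.8% and 14.7% of all genes. A call is an adjusted p under 0.01 by edgeR's quasi-likelihood test, fitted on all 12 libraries with Benjamini-Hochberg adjustment over the 9490 genes. The median log2 fold change of the members was −0.075 at D1 and −0.16 at D20, beside −0.017 and 0.0090 over all genes.

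More members were called with time in culture than with TGF-β. Under TGF-β, 7 of 10 members were called lower at D20 than at D1 (HK1, PFKP, ALDOA, TPI1, PGK1, ENO1 and LDHA) and 0 higher, against 17.7% and 17.2% of all genes. Without TGF-β, at D20 vs D1, 5 of 10 were called lower (PFKP, TPI1, ENO1, PKM and LDHA) and 0 higher, against 17.6% and 18.9%. The median log2 fold changes of the members were −0.33 and −0.25, beside 0.010 and 0.013 over all genes. HK2 was the only member whose log2 fold change was above 0 in these 2 comparisons, and it was not called in either. The 4 comparisons share libraries, so their counts are not independent of one another.

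Proliferation markers moved with time as well, and their part in the members' values was not tested. Summed over the 8 markers, they lay at 771 to 1190 cpm in untreated and 819 to 916 cpm in treated flasks of day 1, and at 122 to 151 cpm and 280 to 475 cpm in those of day 20. All 8 were called lower over time with and without TGF-β, all 8 were called higher with TGF-β at D20, and 0 were called with TGF-β at D1 (by edgeR, 2 of 8 with an unadjusted p under 0.05). In bulk RNA, fewer cells of a kind cannot be told apart from less RNA per cell.

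Flasks without overlap were counted too. With TGF-β at D1, 1 of 10 members lay higher and 3 lower in every treated flask than in every untreated one, against 17.6% and 18.8% of all genes. At D20, 3 members lay higher and 6 lower, against 28.7% and 29.7%. Over time with TGF-β, 0 lay higher and 9 lower at D20, against 31.7% and 31.5%, and over time without it 0 lay higher and 8 lower, against 29.4% and 26.2%. These counts hold many differences that were not called: at D20 with TGF-β, 9 of 10 members separated and 2 of 10 were called.

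**Figure D1:**
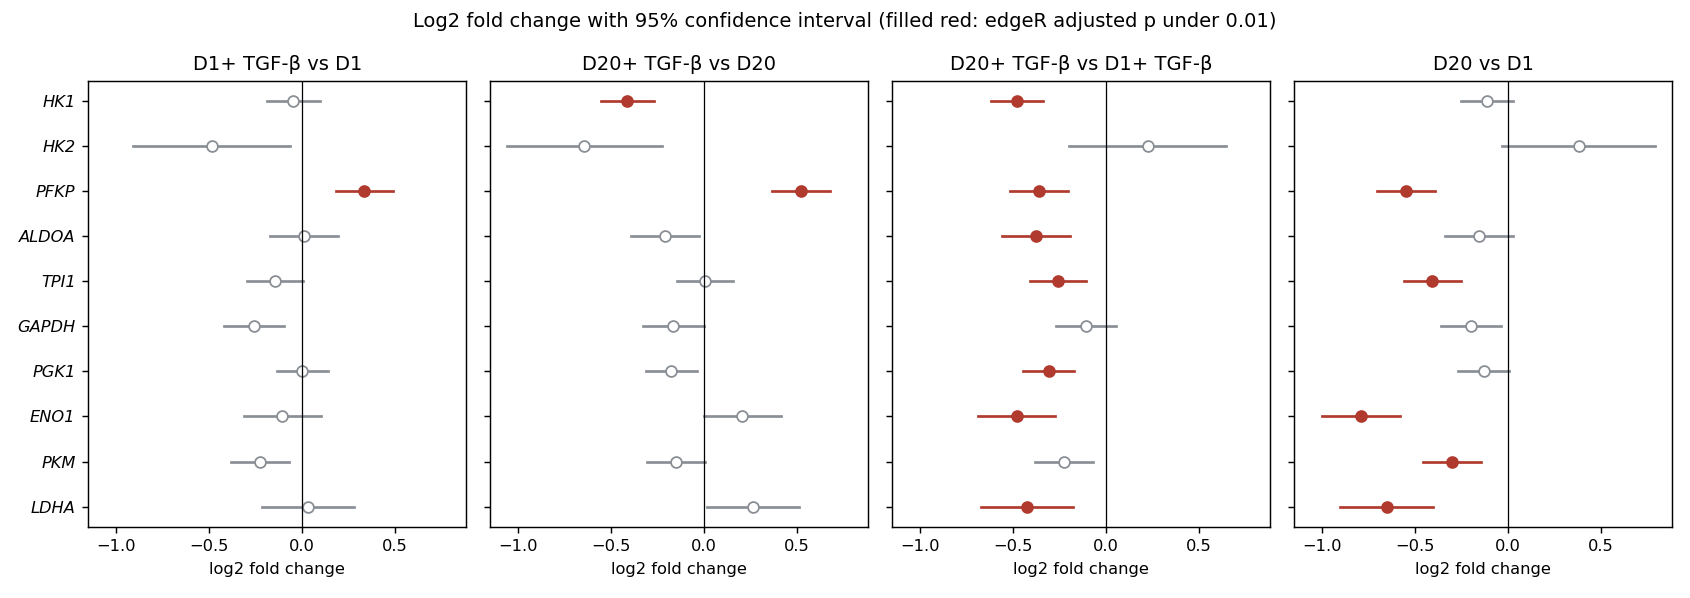
Log2 fold change (x axis) of the 10 enzymes (y axis) in the 4 comparisons, with 95% confidence intervals from the edgeR fit to n = 3 flasks per condition, filled red where called. PFKP is the only member called higher, in both TGF-β comparisons, and the called values of both time comparisons all lie below 0.

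Without D1 replicate 2 and D20+ TGF-β replicate 3, which left 2 flasks in each of those conditions, the called members became 3 (1 higher, 2 lower) with TGF-β at D1, where 13.4% of all genes were then called higher and 14.6% lower, and 3 (1 higher, 2 lower) with TGF-β at D20, against 17.0% and 19.0%. They became 9 (1 higher, 8 lower) over time with TGF-β, against 23.0% and 23.6%, and 8 (1 higher, 7 lower) over time without it, against 23.6% and 24.6%. More of all genes were called in every one of these comparisons than with the 12 libraries. HK2 was the added higher member in both time comparisons.

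The first step is carried out by hexokinases, which bind to the mitochondrial outer membrane. HK1 (chr10:71029740-71161640, plus strand, GRCh37), the form most cells use, measured 220.4, 196 and 209.5 cpm in untreated and 204, 203 and 199.7 cpm in treated flasks of day 1, and 193, 194 and 192 cpm in untreated and 139, 142 and 155 cpm in treated flasks of day 20. The 3 D20+ TGF-β flasks were the lowest of the 12, and the D1 and D1+ TGF-β flasks overlapped. HK1 fell at D20+ TGF-β vs D20 (log2 fold change −0.41 ± 0.066 SE, edgeR adjusted p = 0.000256) and at D20+ TGF-β vs D1+ TGF-β (log2 fold change −0.48 ± 0.066 SE, edgeR adjusted p = 6.85e-05), and both calls held under all 25 alternatives run.

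HK2 (chr2:75061254-75120486, plus strand), the form that growth signals and hypoxia induce, was the least abundant and most variable member. Its D1 flasks measured 80.3, 139 and 72.8 cpm, and replicate 2 lay far above the others. The treated flasks of day 1 measured 67.7, 68.3 and 73.1 cpm, and those of day 20 measured 114, 131 and 136 cpm without TGF-β and 90.8, 86.9 and 66.0 cpm with it. D20 flasks lay above all flasks with TGF-β. The difference at D20+ TGF-β vs D20 missed the threshold (log2 fold change −0.64 ± 0.19 SE, edgeR adjusted p = 0.0164), and so did that at D1 (log2 fold change −0.49 ± 0.19 SE, edgeR adjusted p = 0.0872). Much of the D1 value came from 1 flask: without D1 replicate 2, HK2 had a log2 fold change of −0.12 at D1+ TGF-β vs D1 (adjusted p = 0.441) and of 0.73 at D20 vs D1 (adjusted p = 0.000174, against 0.38 and 0.111 with it). At D20+ TGF-β vs D20, of which that flask is no part, HK2 was then called (adjusted p = 0.000244) at a log2 fold change of −0.63. The fit shares its estimate of spread over all libraries, so leaving out that flask moves p-values there too. Without D20+ TGF-β replicate 3, the lowest flask of its condition, the value at D20+ TGF-β vs D20 was −0.50 (adjusted p = 0.066). Over the 4 lanes of a library the SD of log2 cpm of HK2 was at most 0.16, while between the D1 flasks it was 0.50.

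Phosphofructokinase takes the committed step, and its muscle, liver and platelet forms build the same tetramers. PFKP (chr10:3108525-3179910, plus strand) measured 162, 145 and 161 cpm without TGF-β and 202, 195 and 194 cpm with it on day 1, and 107, 107 and 106 cpm without and 150.0, 143 and 167 cpm with it on day 20. Every treated flask lay above every untreated flask of its day, and the D20+ TGF-β flasks overlapped those of D1. PFKP rose with TGF-β at D1 (log2 fold change 0.33 ± 0.071 SE, edgeR adjusted p = 0.00411) and at D20 (log2 fold change 0.52 ± 0.072 SE, edgeR adjusted p = 7.48e-05), and fell between D1 and D20 both without TGF-β (log2 fold change −0.55 ± 0.072 SE, edgeR adjusted p = 3.17e-05) and with it (log2 fold change −0.36 ± 0.071 SE, edgeR adjusted p = 0.00102). The D1 call was lost under 6 of 25 alternatives, among them leaving out any 1 of the 3 D1+ TGF-β flasks (adjusted p = 0.0201, 0.0149 and 0.0111), while the other 3 calls held under all 25. The difference between the responses of PFKP at D20 and D1 was not called (log2 fold change 0.19 ± 0.10 SE, edgeR adjusted p = 0.205).

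Aldolase splits fructose bisphosphate, and triose phosphate isomerase interconverts the products. ALDOA (chr16:30075485-30081778, plus strand) measured 1046, 826 and 937 cpm in untreated and 952, 911 and 964 cpm in treated flasks of day 1, and 836, 857 and 824 cpm in untreated and 774, 697 and 708 cpm in treated flasks of day 20. The 3 treated flasks of day 20 were the lowest of the 12. ALDOA was called in 1 comparison, D20+ TGF-β vs D1+ TGF-β (log2 fold change −0.38 ± 0.085 SE, edgeR adjusted p = 0.00254), and this call was lost without D20+ TGF-β replicate 2 (adjusted p = 0.0125).

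TPI1 (chr12:6976283-6980112, plus strand) separated by day in all flasks. It measured 556, 563 and 592 cpm without TGF-β and 518, 516 and 514 cpm with it on day 1, and 447, 434 and 410.2 cpm without and 446, 397 and 453 cpm with it on day 20. All 6 flasks of day 20 lay below all 6 flasks of day 1. On day 1 the treated flasks lay below the untreated ones, without a call (log2 fold change −0.14 ± 0.07 SE, edgeR adjusted p = 0.152). TPI1 fell at D20 vs D1 (log2 fold change −0.41 ± 0.07 SE, edgeR adjusted p = 0.000326), and at D20+ TGF-β vs D20 the log2 fold change was 0.005 (95% confidence interval −0.15 to 0.16). Its call at D20+ TGF-β vs D1+ TGF-β (log2 fold change −0.26 ± 0.07 SE, edgeR adjusted p = 0.00835) was lost under 13 of 25 alternatives, with an adjusted p of up to 0.0475 without D20+ TGF-β replicate 2.

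GAPDH and PGK1 carry out the oxidation of the triose phosphate and the first step that makes ATP. GAPDH (chr12:6643678-6647540, plus strand), the most abundant member with 38.9% of the members' counts, measured 4234, 3942 and 4369 cpm in untreated and 3548, 3447 and 3511 cpm in treated flasks of day 1, and 3691, 3752 and 3478 cpm in untreated and 3406, 3053 and 3291 cpm in treated flasks of day 20. The D1 flasks were the highest, the D20+ TGF-β flasks the lowest, and those of the other conditions overlapped. GAPDH passed the threshold in 0 of the 4 comparisons, with the nearest at D1+ TGF-β vs D1 (log2 fold change −0.26 ± 0.075 SE, edgeR adjusted p = 0.024), which was called without D1 replicate 2 (adjusted p = 0.00834) and by DESeq2 (adjusted p = 0.00144).

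PGK1 (chrX:77166236-77384792, plus strand with its longest annotated transcripts) had the narrowest range of condition means among the members, 0.31 on the log2 scale. The D1 and D1+ TGF-β flasks measured 465, 446 and 473 cpm and 456, 466 and 463 cpm, and the log2 fold change between them was 0.0017 (95% confidence interval −0.13 to 0.14). On day 20 the untreated flasks measured 422, 429 and 413 cpm and the treated ones 396, 361 and 363 cpm. Every D20+ TGF-β flask lay below every other flask, and PGK1 fell at D20+ TGF-β vs D1+ TGF-β (log2 fold change −0.31 ± 0.063 SE, edgeR adjusted p = 0.00138).

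Enolase and pyruvate kinase finish the making of pyruvate. ENO1 (chr1:8921059-8939249, minus strand) showed the largest called change of a member. It measured 1142, 959 and 1160.5 cpm without TGF-β and 1035, 1013 and 985 cpm with it on day 1, and 645, 627 and 613 cpm without and 685, 658 and 833 cpm with it on day 20. The lowest D1 flask was higher than every flask of day 20, and D20+ TGF-β replicate 3 lay apart from the other flasks of its condition. ENO1 fell at D20 vs D1 (log2 fold change −0.79 ± 0.097 SE, edgeR adjusted p = 1.85e-05) and at D20+ TGF-β vs D1+ TGF-β (log2 fold change −0.48 ± 0.096 SE, edgeR adjusted p = 0.00115), and both calls held under all 25 alternatives. At D20 it was not called with TGF-β (log2 fold change 0.21 ± 0.096 SE, edgeR adjusted p = 0.103), and without D20+ TGF-β replicate 3 the log2 fold change was 0.11 (adjusted p = 0.32).

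PKM (chr15:72491370-72524160, minus strand), whose M1 and M2 splice forms cannot be told apart in counts per gene, was the second most abundant member. It measured 2605, 2277 and 2480.4 cpm in untreated and 2135, 2058 and 2101 cpm in treated flasks of day 1, and 2009, 2015 and 1948 cpm in untreated and 1813, 1709 and 1853 cpm in treated flasks of day 20. From high to low the conditions ran in that order, and none overlapped with its neighbour. PKM was called at D20 vs D1 (log2 fold change −0.30 ± 0.072 SE, edgeR adjusted p = 0.00347), a call lost under 5 of 25 alternatives, with adjusted p = 0.0158 without D20 replicate 3, 0.014 without D20 replicate 1, 0.0114 without D1 replicate 1 and 0.0108 without D20 replicate 2. The value at D1+ TGF-β vs D1 was not called (log2 fold change −0.23 ± 0.072 SE, edgeR adjusted p = 0.036). It was called under 5 of 25 alternatives, among them without D1 replicate 2 (adjusted p = 0.00821) and by DESeq2 (adjusted p = 0.00446). PKM was not called at D20+ TGF-β vs D1+ TGF-β (log2 fold change −0.23 ± 0.072 SE, edgeR adjusted p = 0.0183). There too 5 of 25 alternatives called it, among them leaving out D1 replicate 2, a flask of neither group (adjusted p = 0.00587), and DESeq2 (adjusted p = 0.00149).

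Lactate dehydrogenase A favours the conversion of pyruvate to lactate. LDHA (chr11:18416107-18429972, plus strand) measured 561, 848 and 682 cpm without TGF-β and 692, 726 and 723 cpm with it on day 1, and 456, 452 and 423 cpm without and 537, 500.3 and 559.7 cpm with it on day 20. D1 replicate 2 was the highest of the 12 flasks. All flasks of day 20 lay below all flasks of day 1, and within day 20 the treated flasks lay above the untreated ones. LDHA fell at D20 vs D1 (log2 fold change −0.65 ± 0.12 SE, edgeR adjusted p = 0.000393), with a log2 value of −0.49 when D1 replicate 2 was left out. It was called at D20+ TGF-β vs D1+ TGF-β (log2 fold change −0.42 ± 0.12 SE, edgeR adjusted p = 0.00801), a call lost under 12 of 25 alternatives, with an adjusted p of up to 0.0372 without D20+ TGF-β replicate 2. With TGF-β at D20 it missed the threshold (log2 fold change 0.26 ± 0.12 SE, edgeR adjusted p = 0.0841). Without D1 replicate 2, a flask of neither group there, it passed the threshold (adjusted p = 0.00739) at a log2 fold change of 0.28. The estimate of spread is shared over all libraries, so that p-value moved while the size of the change hardly did.

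**Figure D2:**
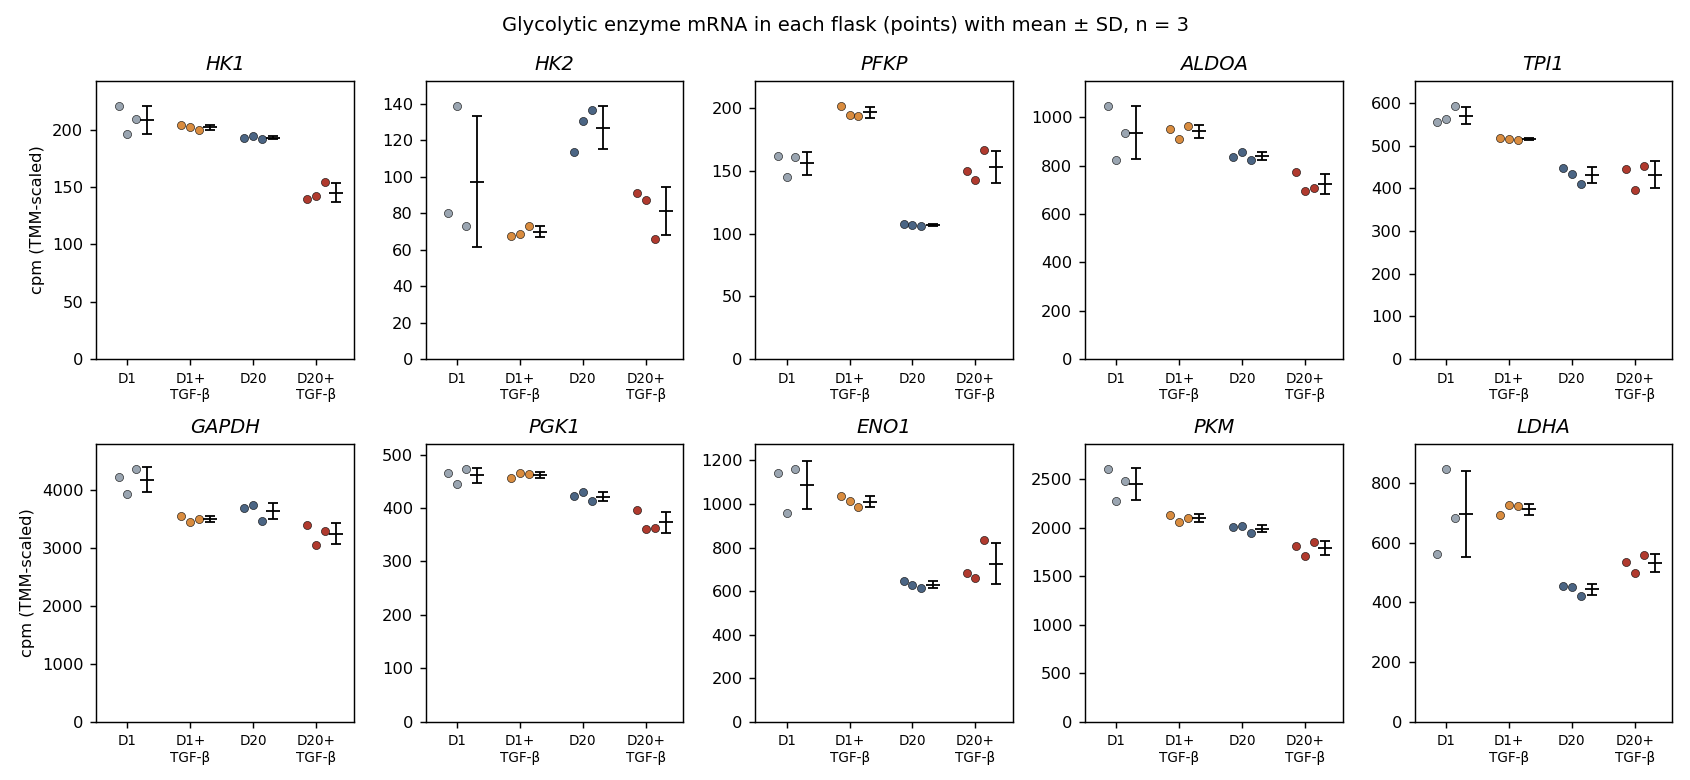
TMM-scaled cpm (y axis, from 0, with a scale for each gene) of the 10 enzymes in each of the 12 flasks (points), with the mean ± SD of the 3 flasks of a condition beside them. PFKP lies higher with TGF-β on both days, TPI1, ENO1 and LDHA lie lower on day 20, and D1 replicate 2 stands apart for HK2 (139 cpm) and LDHA (848 cpm).

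Reads of overlapping genes may add to these values, since the use of strand in counting is not given in the sources used here. ENO1-AS1 overlaps ENO1 and SPSB2 overlaps TPI1 on the opposite strand, and PGK1 shares its annotated span with ATP7A on the same strand and PGAM4 on the other. RefSeq names 65 GAPDH pseudogene copies, of which 0 were in the count table, and 2 of 4 TPI1 copies had 103 counts in all beside 74449 for TPI1.

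Against each other, the enzymes were compared as cpm per kilobase of the union of exons. At D1, GAPDH reached 1745 ± 91.1 cpm per kilobase (SD, n = 3), followed by PKM with 286 ± 19.3 and ALDOA with 245 ± 28.8. TPI1 had 211 ± 7.08, ENO1 208 ± 21.4, LDHA 116 ± 23.9 and PGK1 84.8 ± 2.57 cpm per kilobase. HK1 with 30.4 ± 1.77, PFKP with 20.1 ± 1.22 and HK2 with 16.4 ± 6.08 closed the order. Means of the neighbours TPI1 and ENO1, and of PFKP and HK2, differed by less than an SD of one of them. With transcript lengths in place of the exon union, ENO1 passed TPI1. PFKP passed HK1 with the MANE Select (reference) transcript, at 59.4 against 57.9 cpm per kilobase. With the longest transcript it did not, at 47.8 against 52.2. HK1, PFKP and HK2, the members that consume ATP, had the lowest levels per length.

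Together the 10 genes took 1.12 ± 0.0387% (SD, n = 3) of all counts in untreated flasks of day 1 (1.07 to 1.15%) and 0.958 ± 0.0137% in treated ones (0.942 to 0.968%). On day 20 they took 0.863 ± 0.0309% without TGF-β (0.828 to 0.887%) and 0.828 ± 0.0459% with it (0.775 to 0.858%). The D1 flasks lay above all others, and the D20 and D20+ TGF-β flasks overlapped. With 3 flasks against 3, an exact permutation test cannot give a p below 0.1, so no test was run on these shares. GAPDH and PKM made up most of the sum, and their values weigh most in it.

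The balance between enzyme forms was described as each form's share of the step's cpm per kilobase of its MANE Select transcript, with no test. PFKP made up 43.2 ± 1.97% (SD, n = 3) of phosphofructokinase without and 50.3 ± 1.62% with TGF-β on day 1, and 37.8 ± 0.436% and 43.8 ± 1.29% on day 20. The treated flasks lay above the untreated ones on both days, at 48.6 to 51.9% against 41.0 to 44.5% on day 1 and 42.7 to 45.2% against 37.3 to 38.1% on day 20. PFKL and PFKM, the liver and muscle forms, were called in 0 of the 4 comparisons, with log2 fold changes of −0.026 and −0.15 at D1+ TGF-β vs D1 and of 0.092 and 0.24 at D20+ TGF-β vs D20. With the exon union in place of the MANE Select transcript the PFKP shares were 40.7, 47.9, 35.5 and 41.2%, in the same order of conditions.

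HK2 made up 22.8 ± 7.28% of HK1 and HK2 together at D1, with 31.1% in replicate 2 and 18.9 and 18.2% in the others. Its share was 18.1 ± 0.795% in treated flasks of day 1, and 29.6 ± 2.00% without and 26.4 ± 4.28% with TGF-β on day 20, and the day 20 flasks with and without TGF-β overlapped. The level of this share depends on the length used. With the exon union HK2 took 34.2, 28.4, 42.9 and 39.0% of all hexokinases, in the same order of conditions. LDHA made up 37.3 ± 6.48% of lactate dehydrogenase without and 38.9 ± 0.698% with TGF-β on day 1, and 33.6 ± 0.260% and 33.5 ± 0.570% on day 20, nearly all of the rest being LDHB. With the exon union the LDHA shares were 33.6, 35.1, 30.1 and 30.0%. LDHB, the form that favours the conversion of lactate to pyruvate, fell at D20 vs D1 (log2 fold change −0.41 ± 0.081 SE, edgeR adjusted p = 0.000827). The share of LDHA stayed within 33.0 to 34.1% in the 6 flasks of day 20, although LDHA measured 423 to 560 cpm in them.

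**Figure D3:**
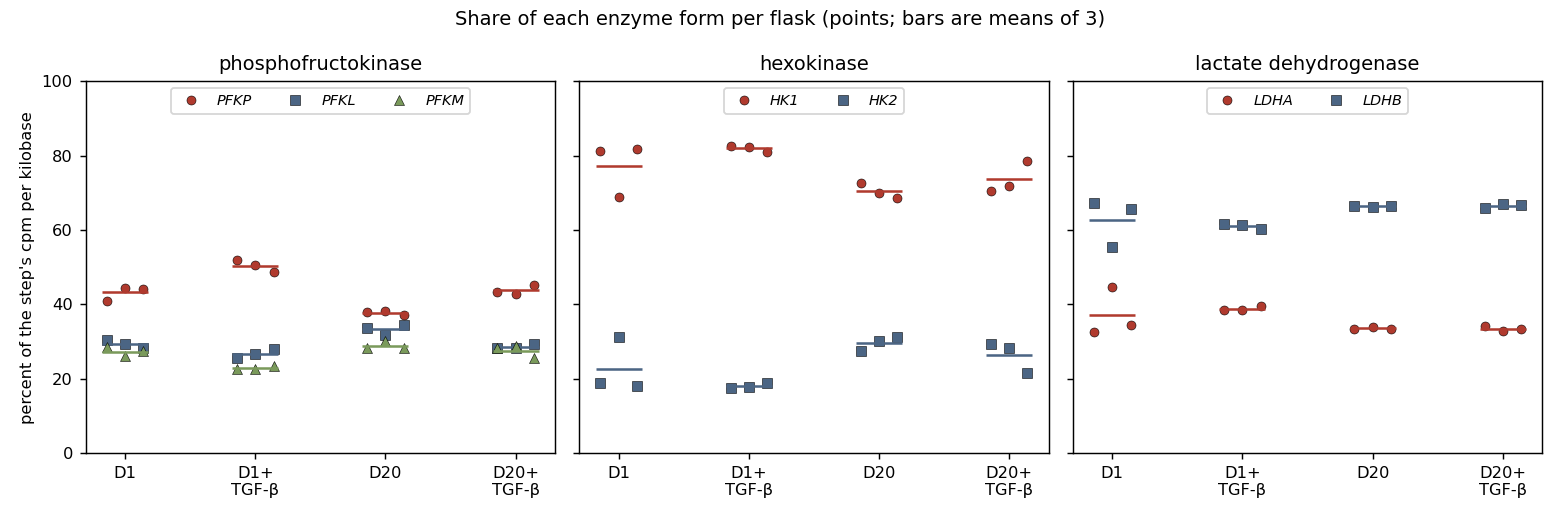
Percent of a step's cpm per kilobase of transcript (y axis, 0 to 100) that each enzyme form takes in each of the 12 flasks (points), with bars for the means of 3 flasks. The share of PFKP is higher with TGF-β on both days, the share of HK2 is 31.1% in 1 D1 flask, and the share of LDHA is near 33.5% in all flasks of day 20.

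GAPDH served as the loading control for the study's real-time PCR. The range of its 4 condition means was 0.36 on the log2 scale. Among 12 other common reference genes, PPIA had 0.20, RPLP0 0.23 and GUSB 0.33, and 8 had 0.41 to 0.85, with the widest for ACTB, which fell at D20+ TGF-β vs D1+ TGF-β (log2 fold change −0.84 ± 0.10 SE, edgeR adjusted p = 2.78e-05). Read as a difference from GAPDH, with no test, the log2 fold change of PFKP with TGF-β was 0.59 instead of 0.33 at D1 and 0.69 instead of 0.52 at D20, and that of LDHA at D20 was 0.43 instead of 0.26. HK1 at D20+ TGF-β vs D20 was −0.25 instead of −0.41.

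The members were also compared by the shape of their values over the 12 libraries, as the root mean square distance of centred log2 cpm. Among the 45 pairs of members the closest were GAPDH and PKM (0.065) and ALDOA and PGK1 (0.068). Outside the members, 9476 genes were compared. The nearest gene was AP1B1, an adaptor subunit of clathrin coats, for HK1 (0.043), GART, an enzyme of purine synthesis, for PFKP (0.056), and SGTA, a co-chaperone, for ALDOA (0.050). It was CS, the citrate synthase, for TPI1 (0.057), POLR2C, a subunit of RNA polymerase II, for PGK1 (0.046), and BYSL, a factor of ribosome assembly, for ENO1 (0.067). USP5, a deubiquitinase, was nearest to PKM (0.042) and HNRNPH1, an RNA-binding protein, to LDHA (0.069). The points share libraries and their composition, and the distances are descriptions.

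Genes around the pathway were taken from lists. Their counts of rises and falls are to be read beside the shares of all genes called. With TGF-β, 6.89% of all genes were called higher and 6.50% lower at D1, and 12.8% and 14.7% at D20. Over time the shares were 17.2% and 17.7% with TGF-β, and 18.9% and 17.6% without it. Counts near these shares are not read as results about a list. Of 11 glucose and lactate transporters, 9 were tested. With TGF-β, 1 rose and 0 fell at D1, and 2 rose and 2 fell at D20. SLC16A1, the monocarboxylate transporter that carries lactate and pyruvate, measured 66.5, 73.5 and 74.1 cpm in untreated and 99.1, 109.9 and 92.2 cpm in treated flasks of day 1, and 50.04, 46.3 and 55.4 cpm in untreated and 79.3, 77.3 and 76.6 cpm in treated flasks of day 20. It was higher in every treated flask on both days (0.49, adjusted p = 0.000748, and 0.62, adjusted p = 6.81e-05, on the log2 scale by edgeR). SLC2A1, the main glucose transporter, measured 140.2, 189.7 and 125 cpm without TGF-β and 132, 129 and 143 cpm with it on day 1, and 233, 252 and 265 cpm without and 173, 182 and 140.0 cpm with it on day 20. It rose at D20 vs D1 (log2 fold change 0.72 ± 0.13 SE, edgeR adjusted p = 0.000593) and fell with TGF-β at D20 (log2 fold change −0.60 ± 0.13 SE, edgeR adjusted p = 0.00291), and with TGF-β at D1 its log2 fold change was −0.18 (adjusted p = 0.367). The fall at D20 was not called without D20+ TGF-β replicate 3 (−0.48, adjusted p = 0.0138), and the rise over time was 0.91, adjusted p = 9.25e-06 without D1 replicate 2. SLC2A8 fell at D20+ TGF-β vs D20 (−0.60, adjusted p = 0.000856), and SLC2A10 rose at D20 vs D1 (0.88, adjusted p = 9.39e-05). Over time with TGF-β, SLC2A6 (0.90, adjusted p = 0.00023) and SLC16A7 (0.74, adjusted p = 0.002) had the largest of 3 rises, and 1 transporter fell. Without D20+ TGF-β replicate 3 the value of SLC2A6 was 1.05, adjusted p = 7.64e-06. At D20 vs D1, 2 rose and 1 fell.

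Of 19 other enzymes that carry out or branch from glycolytic steps, 9 were tested. BPGM, which makes 2,3-bisphosphoglycerate from a glycolytic intermediate, measured 22.0, 24.9 and 21.9 cpm in untreated and 79.3, 73.6 and 75.9 cpm in treated flasks of day 1, and 30.3, 31.1 and 32.9 cpm in untreated and 46.6, 44.2 and 37.1 cpm in treated flasks of day 20. It was the only one of the 9 called with TGF-β at D1 (log2 fold change 1.73 ± 0.092 SE, edgeR adjusted p = 5.54e-08), it rose at D20 (log2 fold change 0.44 ± 0.09 SE, edgeR adjusted p = 0.00158), by less than at D1 in the test of the difference (−1.29, adjusted p = 2.85e-05), and it was lower in treated cells at D20 than at D1 (log2 fold change −0.83 ± 0.088 SE, edgeR adjusted p = 9.56e-06). With TGF-β at D20, 3 rose and 2 fell. ALDOC and ENO2, the forms of aldolase and enolase first described in brain, were the largest changes there, with log2 fold changes of 0.60 (adjusted p = 0.00272) and 0.60 (adjusted p = 0.000324), beside −0.21 and 0.21 for the more abundant ALDOA and ENO1, which were not called. GPI, PGAM1 and LDHB are named here although they were chosen after their values were seen. GPI, the glucose phosphate isomerase, fell at D20 vs D1 (log2 fold change −0.28 ± 0.071 SE, edgeR adjusted p = 0.00515), and PGAM1, the phosphoglycerate mutase, fell at D20+ TGF-β vs D20 (log2 fold change −0.25 ± 0.065 SE, edgeR adjusted p = 0.00838). Over time, 1 of the 9 rose and 2 fell with TGF-β, and 1 rose and 3 fell without it.

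A list of 7 genes held the enzymes that make or break fructose 2,6-bisphosphate, an activator of phosphofructokinase, and the fructose 1,6-bisphosphatases, and 4 of the first kind were tested. At D1+ TGF-β vs D1, 0 were called by edgeR (2 of the 4 had an unadjusted p under 0.05). PFKFB3, the form best known for raising glycolysis, measured 48.9, 57.7 and 41.0 cpm without TGF-β and 67.0, 55.0 and 72.7 cpm with it on day 1, and 51.6, 57.0 and 54.2 cpm without and 78.6, 84.2 and 56.6 cpm with it on day 20. It was not called with TGF-β on either day (edgeR adjusted p = 0.079 and 0.0328), and its flasks overlapped on both. The overlap came from D1 replicate 2 on day 1 and from D20+ TGF-β replicate 3 on day 20. On each day the other treated flasks lay above the other untreated ones. With TGF-β at D20, PFKFB4 (0.80, adjusted p = 0.00131) and PFKFB2 (0.59, adjusted p = 0.00295) rose and TIGAR, a phosphatase that lowers fructose 2,6-bisphosphate, fell (−0.22, adjusted p = 0.00644), a call lost without D20+ TGF-β replicate 3 (−0.20, adjusted p = 0.0336). PFKFB2 rose at D20+ TGF-β vs D1+ TGF-β (1.06, adjusted p = 5.13e-05), and TIGAR rose at D20 vs D1 (0.43, adjusted p = 3.28e-05).

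Genes for the entry of pyruvate into mitochondria were tested for 12 of 14. PDK1, a kinase that shuts off pyruvate dehydrogenase, fell in all 4 comparisons. It measured 69.1, 74.4 and 100.4 cpm without TGF-β and 49.7, 57.0 and 43.4 cpm with it on day 1, and 59.9, 49.5 and 48.2 cpm without and 23.5, 24.9 and 31.2 cpm with it on day 20. With TGF-β the log2 fold change was −0.69 at D1 (adjusted p = 0.00453) and −0.99 at D20 (adjusted p = 0.000236). The phosphatases that switch the enzyme on again rose with TGF-β, PDP1 at D1 (0.40, adjusted p = 0.00656) and PDP2 at D20 (0.65, adjusted p = 3.93e-05). With TGF-β, 1 of the 12 rose and 2 fell at D1, and 2 rose and 2 fell at D20. Over time, 3 rose and 4 fell with TGF-β, and 1 rose and 4 fell without it. PDK2, a further kinase, rose at D20 vs D1 (0.59, adjusted p = 5.63e-05), and PC, the pyruvate carboxylase, rose at D20+ TGF-β vs D1+ TGF-β (0.67, adjusted p = 0.00206, and 0.83, adjusted p = 5.24e-05 without D20+ TGF-β replicate 3).

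The largest median changes with TGF-β among the pathway lists, 0.94 at D1 and 0.84 at D20 on the log2 scale, were those of branches that leave glycolysis. Of 8 genes for side branches, 7 were tested, and with TGF-β 5 rose and 1 fell at D1 and 4 rose and 2 fell at D20. PHGDH, PSAT1 and PSPH make serine from 3-phosphoglycerate. PSAT1 measured 44.2, 26.1 and 46.2 cpm without TGF-β and 142, 149 and 151 cpm with it on day 1, and 27.8, 29.3 and 36.98 cpm without and 126, 119 and 218 cpm with it on day 20. D20+ TGF-β replicate 3 lay far above the other flasks. PSAT1 rose with TGF-β at D1 (log2 fold change 1.93 ± 0.23 SE, edgeR adjusted p = 6.06e-05) and D20 (log2 fold change 2.29 ± 0.24 SE, edgeR adjusted p = 6.61e-06). PHGDH measured 44.3, 27.7 and 38.6 cpm in untreated and 78.9, 67.8 and 81.3 cpm in treated flasks of day 1, and 21.0, 20.4 and 23.1 cpm in untreated and 85.2, 82.5 and 135 cpm in treated flasks of day 20, and rose by 1.04 at D1 (edgeR adjusted p = 0.00131) and 2.22 at D20 (edgeR adjusted p = 1.54e-06) on the log2 scale. Without D20+ TGF-β replicate 3, the D20 values were 1.97, adjusted p = 1.66e-06 for PSAT1 and 1.98, adjusted p = 3.25e-07 for PHGDH. PSPH rose on both days (1.08, adjusted p = 0.000109, and 1.04, adjusted p = 6.09e-05), and the difference between these responses was −0.043 (95% confidence interval −0.47 to 0.38). Every treated flask lay above every untreated flask of its day for all 3 genes. With time, 0 of the 7 rose and 3 fell under TGF-β, GFPT2 (−0.53, adjusted p = 0.00642) and GPD1L (−0.51, adjusted p = 0.00497) with the largest changes (GFPT2 −0.39, adjusted p = 0.0171 without D20+ TGF-β replicate 3), and 0 rose and 1, PHGDH, fell without it (−0.77, adjusted p = 0.0054).

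Glycogen metabolism was tested for 9 of 9 genes. PGM1, which joins glucose 1-phosphate to glycolysis, measured 34.4, 29.8 and 32.6 cpm in untreated and 50.9, 48.8 and 44.2 cpm in treated flasks of day 1, and 28.7, 33.7 and 32.3 cpm in untreated and 62.5, 56.7 and 56.0 cpm in treated flasks of day 20. It rose with TGF-β on both days (0.57, adjusted p = 0.00041, and 0.89, adjusted p = 4.36e-06). With TGF-β 2 genes rose and 1 fell at D1, UGP2 being the other rise (0.49, adjusted p = 0.00144), and 1 rose and 3 fell at D20, with the largest fall for GYS1, the glycogen synthase (−0.52, adjusted p = 0.000263). With time 1 rose and 2 fell both with and without TGF-β, among them PGM2 lower (−0.61, adjusted p = 0.000432, and −0.55, adjusted p = 0.000827).

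The pentose phosphate pathway, which leaves glycolysis at glucose 6-phosphate to make NADPH and ribose, was tested for 7 of 7 genes. TKT fell at D1+ TGF-β vs D1 (−0.44, adjusted p = 0.00628) and was the only one called there. With TGF-β at D20, 0 rose and 2 fell, among them TALDO1 (−0.58, adjusted p = 8.63e-05). Over time with TGF-β 2 rose, with the larger change for PGLS (0.36, adjusted p = 0.00249), and TALDO1 fell (−0.63, adjusted p = 4.08e-05), and without it 0 were called (by edgeR, 1 of 7 with an unadjusted p under 0.05).

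**Figure D4:**
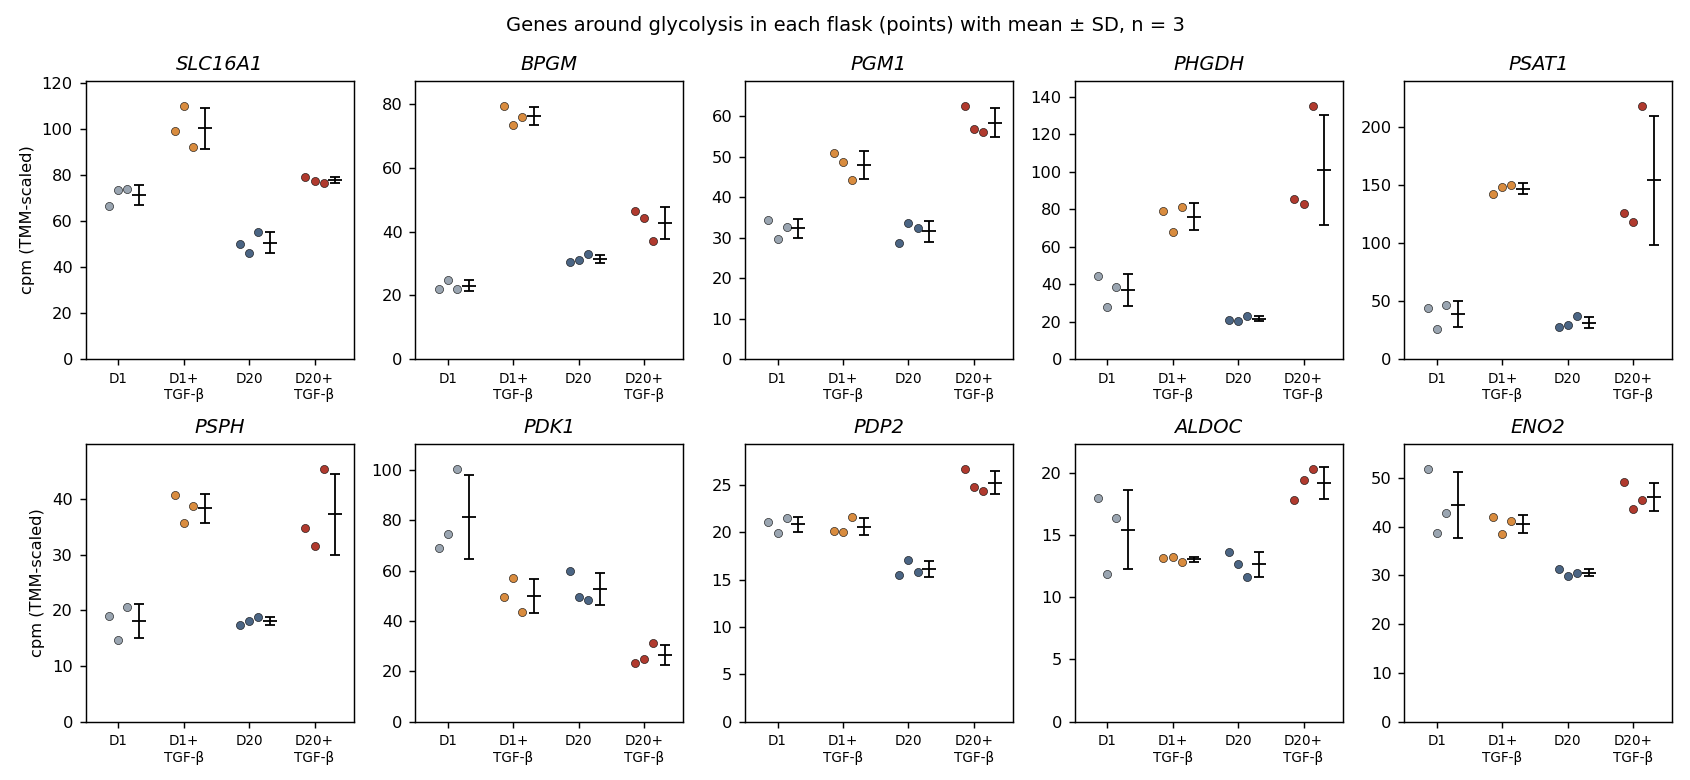
TMM-scaled cpm (y axis, from 0, with a scale for each gene) of 10 genes around glycolysis in each of the 12 flasks (points), with the mean ± SD of 3 flasks. SLC16A1, BPGM, PGM1, PHGDH, PSAT1 and PSPH lie higher and PDK1 lower in every treated flask than in every untreated flask of the same day, and ALDOC, ENO2 and PDP2 lie higher with TGF-β at D20.

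Of 19 genes listed for the subunits, regulators and non-glycolytic targets of hypoxia-inducible factor, 16 were tested. At D20 vs D1, 10 of the 16 rose and 0 fell, where 18.9% of all genes rose and 17.6% fell. ADM, the vasodilator peptide adrenomedullin (1.16, adjusted p = 1.76e-07), and MXI1, an antagonist of MYC (0.99, adjusted p = 9.67e-06), changed most. Over time with TGF-β, 8 rose and 0 fell, where 17.2% of all genes rose and 17.7% fell, led by CA12 (1.36, adjusted p = 9.77e-05) and MXI1 (1.16, adjusted p = 6.36e-06). With TGF-β, 3 rose and 4 fell on each day. DDIT4, an inhibitor of mTOR signalling, rose on both days (1.23, adjusted p = 1.82e-05, and 1.44, adjusted p = 9.28e-07), P4HA2, a collagen prolyl hydroxylase, rose at D1 (1.08, adjusted p = 3.16e-07), and EPAS1, the second α subunit of the factor, fell at D20 (−1.71, adjusted p = 1.64e-05). Without D20+ TGF-β replicate 3 the values were −1.43, adjusted p = 1.27e-07 for EPAS1 and, over time, 1.60, adjusted p = 1.58e-07 for CA12. CA9 and EGLN3, further genes known to respond to hypoxia, stayed at most at 0.506 and 0.225 cpm and were not tested.

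Whether TGF-β acted differently on the enzymes at D20 and D1 was tested as the difference of the log2 fold changes. By edgeR 0 of the 10 members were called, against 4.51% of all genes higher and 5.87% lower, and 2 had an unadjusted p under 0.05. HK1 came closest (log2 fold change −0.37 ± 0.093 SE, edgeR adjusted p = 0.0134), with a log2 fold change of −0.045 at D1 and −0.41 at D20. It was called by DESeq2 (adjusted p = 0.00249), without D1 replicate 1 (adjusted p = 0.00633) and without D20+ TGF-β replicate 3 (adjusted p = 0.00734). ENO1 was the other, at 0.31 (adjusted p = 0.122).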

How the data were processed

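RNA was sequenced by the authors from 3 flasks in each of 4 conditions, with a directional kit and paired ends. The authors trimmed reads with Trimmomatic, mapped them to hg19 with Rsubread and deposited raw counts per gene and lane (48 columns, 25702 genes). They also deposited log2 cpm written by voom, used here for symbols and 1 alternative. The counting program and its use of strand are not given in the sources used here. Columns were matched to samples by name, and counts of the 4 lanes were added up per library.

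The 9490 genes (of 20434 with a count) that reached 10 cpm in 6 or more libraries were tested in R 4.3.3 with edgeR 4.0.16 (TMM factors, quasi-likelihood F-test, 1 mean per condition over 12 libraries, Benjamini-Hochberg adjustment, calls at an adjusted p under 0.01). The study used limma with the same cpm filter, counted over 48 lane columns, and the same limit on adjusted p, and for its gene counts a limit on fold change that was not applied here. Each standard error is the size of the log2 fold change divided by the square root of F, and log2 cpm had a prior count of 2. The common biological coefficient of variation was 9.35%. Lengths and positions are from GENCODE on GRCh37. Confidence intervals cover the spread between flasks.

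The 10 members and all lists were chosen with earlier results of these data known. Named beside the members are, per list and comparison, up to 2 called genes with the largest change, the nearest gene in shape to each called member, and PDK1, SLC2A1 and PFKFB3. A few listed genes are not reported here. The CAGAC motif was added after the data were seen. Alternatives used DESeq2 1.42.0, limma 3.58.1, other scalings and filters, each library left out and a replicate block. Refits of listed genes without the libraries that stood apart were added after the data were seen. The tests were checked on simulated counts, where many of the smaller changes were missed. A value that was not called is thus not shown to be unchanged. PCR and protein data of the study were not analysed here.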

Additional observations from a re-analysis of the deposited data

Results flagged for a closer look

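By edgeR, 0 of the 10 enzymes were called for a difference between the D20 and D1 responses to TGF-β, 2 had an unadjusted p under 0.05, and DESeq2 called 1, HK1. A p that misses the threshold does not show that the responses were the same. Of 55 named genes of the lists, 19 were called (adjusted p under 0.01, D20 response minus D1 response, in log2 units). Those 55 were named for large called changes in these data, so the count is not set against the share of all genes. Around glycolysis these were BPGM (−1.29), whose rise was larger at D1, and ALDOC (0.83), ENO2 (0.73), PHGDH (1.18), PC (1.18), PDP2 (0.67) and SLC2A6 (1.13), with higher values for the response at D20, and TIGAR (−0.37). Among the targets of hypoxia-inducible factor they were CA12 (1.60) and P4HA2 (−0.70), and among reference genes ACTB (−0.69) and TFRC (−0.41). The contractile genes ACTA2 (−1.94), CNN1 (−1.65) and MYL9 (−0.97) and the fibroblast marker THY1 (−0.99) had the lower response at D20, and the proliferation markers AURKB (1.71), CDC20 (2.16) and CDK1 (1.29) the higher. For PC, SLC2A6 and CA12, D20+ TGF-β replicate 3 was the lowest flask of its condition (26.5, 23.2 and 16.7, 27.5, 23.4 and 17.6, and 54.0, 46.1 and 26.6 cpm in replicates 1 to 3). Without that flask, ALDOC (0.80, adjusted p = 0.0115), TIGAR (−0.35, adjusted p = 0.0132), TFRC (−0.38, adjusted p = 0.0153) and CDK1 (1.10, adjusted p = 0.0103) were not called, and PC (1.35, adjusted p = 5.11e-05), SLC2A6 (1.29, adjusted p = 8.20e-05) and CA12 (1.85, adjusted p = 3.53e-06) were. Without it and D1 replicate 2, CDK1 was called, at 0.86, adjusted p = 0.00131.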

How the results depend on the processing

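Of 1240 values of a member in a comparison under an alternative, 1132 kept their direction and their side of the threshold, 37 lost a call, 55 gained one and 16 changed sign, all in values that were not called. The cause was not tested except where stated. The number of all genes called changed with the setting as well. The 48 lanes as samples, which count each RNA 4 times, called 5 and 9 members for TGF-β at D1 and at D20, 10 over time without TGF-β and 6 for the difference of responses, in place of 1, 2, 5 and 0. Over all genes, the lanes called 1981 higher and 1914 lower of 9412 at D1, and 2637 and 2517 at D20. The main fit called 654 and 617 of 9490 at D1, and 1210 and 1399 at D20. DESeq2 called 3 at D1 and 1 for the difference, no gene filter called 0 at D1, and no composition factor called 2 there, GAPDH and PKM lower, with PFKP not called. Over all genes at D1, DESeq2 called 827 higher and 766 lower of 9490, and no composition factor 500 and 931. No gene filter called 773 and 923 of 20434 there. Fits to only the 6 libraries of a comparison, with fewer samples, gave 0 at D1 and 4 for TGF-β at D20. Over all genes, these fits called 377 higher and 292 lower of 8796 at D1, and 1275 and 1483 of 8812 at D20. Without D1 replicate 2 and D20+ TGF-β replicate 3, chosen after seeing the data, the counts were 3 at D1, 8 for D20 vs D1 and 1 for the difference. For the difference, 1070 of 9230 genes were then called higher and 1133 lower, against 428 and 557 of 9490 in the main fit. Leaving out each library in turn gave 0 to 3, 2 to 4, 4 to 8 (4 without D20+ TGF-β replicate 2), 4 to 6 and 0 to 1 members in the 5 comparisons. At D1 it was 0 without each D1+ TGF-β flask and 3 without D1 replicate 2. For TGF-β at D20, 4 members were called without D1 replicate 2, which is in neither group there. Of all 9387 genes, 1637 were then called higher and 1608 lower. The members' share of counts without FN1 and mitochondrial genes was 1.17, 1.02, 0.903 and 0.882% in the 4 conditions (untreated and treated, D1 before D20), and leaving out a flask gave 1.10 to 1.14, 0.952 to 0.965, 0.851 to 0.880 and 0.813 to 0.854%.

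For values that changed sign, ranges cover each library left out in turn. At D1+ TGF-β vs D1, HK1 ranged from −0.076 to 0.0042 (without D1 replicate 1), LDHA from −0.093 (without D1 replicate 1) to 0.21 (−0.030 with no composition factor), ALDOA from −0.062 (without D1 replicate 2) to 0.10, and PGK1 from −0.010 (without D1 replicate 2) to 0.027. ALDOA and PGK1 were at −0.051 and −0.060 with no composition factor, −0.00865 and −0.016 with no gene filter, and −0.078 and −0.027 without both libraries that stood apart. With TGF-β at D20, TPI1 ranged from −0.013 (also below 0, at −0.012 and −0.0095, without D20 replicate 3 and D20+ TGF-β replicate 1) to 0.084, and was −0.029 without both libraries. The difference of responses of HK2 ranged from −0.50 (without D1 replicate 2) to 0.018 (without D1 replicate 3). No composition factor moved the share of higher calls over all genes from 51.5 to 34.9% for TGF-β at D1, from 51.8 to 39.2% over time without TGF-β and from 43.5 to 66.6% for the difference, whose median moved by 0.11.

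Same-numbered flasks did not deviate together (correlations of −0.22 to 0.026 over 12 pairs), so the numbers do not pair samples. With a replicate block 1, 2, 5, 5 and 0 members were called in the 5 comparisons. TPI1 and LDHA lost their calls over time with TGF-β under it (adjusted p = 0.0152 and 0.0109). HK2 had the fewest counts of the members and the largest spread between lanes, an SD of log2 cpm of at most 0.16. Its SD between the D1 flasks was larger, at 0.50, with replicate 2 apart from the others.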
